A study of Mus musculus with 11 samples.

Results

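The genes described here encode the protein conjugation machinery built around ATG5. They are Atg5, Atg12, Atg16l1, Atg16l2, Atg7, Atg10, Atg3 and Atg4b. The genes were taken by symbol from the platform annotation, and each of the 8 had 1 transcript cluster among the 22206 tested. RNA came from liver sinusoidal endothelial cells, which line the hepatic capillaries, and was measured on mouse Clariom S arrays. All mice carried floxed Atg5 alleles (Atg5lox/lox), were 8 weeks old at the start and received a high fat diet for 2 weeks. The 6 wild type arrays came from Atg5lox/lox mice and the 5 autophagy-deficient arrays from Atg5lox/lox;VE-cadherin-Cre mice, so the genotypes differ in the presence of Cre itself. The VE-cadherin promoter is active in endothelial cells in general, and the deletion is therefore not limited to the sinusoids. Each array is a numbered biological replicate. Whether an array holds 1 animal or a pool is not given in the sources used here, and a p-value therefore covers only the array-to-array spread.

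Autophagy encloses cytoplasm in a double membrane and delivers it to the lysosome. In its conjugation step, ATG7 activates the ubiquitin-like protein ATG12, ATG10 passes it to ATG5, and the conjugate binds ATG16L1. That complex directs ATG3, which attaches LC3 and GABARAP proteins to the lipid phosphatidylethanolamine of the growing membrane. ATG4B trims LC3 before the reaction and can remove it from membranes afterwards. In endothelial cells, deletion of Atg5 or Atg7 is a common way to switch autophagy off.

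The promoter sequences are shown because members could share a regulatory element. In RefSeq's table (build GRCm38.p6), 6 of the 8 genes had a window that was searched. Such a window ran from 250 bases before to 50 bases after an annotated start of the gene. The E-box CACGTG reads the same on both strands and is the core of the element bound by TFEB, a transcription factor of lysosomal and autophagy genes. It occurred in the windows of Atg5, Atg7 and Atg3, which is 3 of 6 genes. Of the 32851 windows of the table, where a gene can have several, 7.15% held it. The first share counts genes and the second counts windows, so they cannot be compared directly. The longer form TCACGTGA, which contains the E-box, occurred in the Atg3 window and in 0.974% of all windows. The bases before the start of Atg5, and the stretches around the E-boxes of Atg7 and Atg3, are printed 5′ to 3′ on the plus strand with the E-box in capitals. They lie at chr10:44268089-44268338, chr6:114670944-114670989 and chr16:45158715-45158783.
Atg5: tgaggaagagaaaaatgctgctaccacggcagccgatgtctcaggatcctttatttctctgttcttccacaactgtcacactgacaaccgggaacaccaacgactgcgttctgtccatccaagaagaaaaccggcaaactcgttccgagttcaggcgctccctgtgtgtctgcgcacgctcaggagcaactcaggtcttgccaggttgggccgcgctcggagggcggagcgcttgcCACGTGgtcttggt
Atg7: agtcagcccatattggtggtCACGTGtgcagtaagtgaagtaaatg
Atg3: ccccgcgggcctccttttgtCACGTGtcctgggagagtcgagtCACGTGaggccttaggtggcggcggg
The E-box begins 14 bases before the annotated start used for Atg5 and 132 bases before that used for Atg7. The E-boxes of Atg3 begin 94 and 71 bases before the start used for it. As a gene can have several windows, a start used here need not be the gene's main start. A match is a description of these letters and does not show that a factor binds there.

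Before the genotypes are compared, some properties of the arrays bear on the members. All 11 sinusoidal endothelial markers, Stab2 and Lyve1 among them, read above the array's own antigenomic controls on all 11 arrays. Their mean log2 level ranged from 11.48 to 11.91 in wild type and from 11.49 to 11.92 in autophagy-deficient arrays. The 13 hepatocyte markers were all lower in the autophagy-deficient arrays (median log2 difference -0.96, list mean 9.01 to 10.33 in wild type and 8.01 to 9.61 in autophagy-deficient). The 11 Kupffer cell and macrophage markers were all higher (median 1.15, list mean 7.08 to 8.51 and 7.77 to 10.43). The study's rule (a 1.5-fold or larger difference and an uncorrected p up to 0.05) was met by 11 of 11 macrophage and 8 of 13 hepatocyte markers, against 1.03% of all clusters. Stellate cell markers were higher in 7 of 7, of which 0 met the rule. In bulk RNA, fewer cells of a type and less RNA per cell cannot be told apart. Independently of genotype, 4 arrays stood apart in the mean of their 5222 intron control rows. Wild type arrays 1 and 6 and autophagy-deficient arrays 3 and 4 read 5.75 to 5.96 there, and the other 7 arrays 5.05 to 5.38.

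None of the 8 genes was called between the genotypes. By the study's rule 0 of 8 members were called, against 228 of 22206 clusters (1.03%). With limma and a Benjamini-Hochberg adjusted p of at most 0.05, 0 of 8 members and 0 of 22206 clusters (0%) were called. At an unadjusted limma p up to 0.05 the count was 0 of 8 members and 1419 of all clusters (6.39%). The arrays of the genotypes overlapped for all 8 members, whereas they did not overlap for 105 clusters (0.473%). With backgrounds this low, 0 calls among 8 genes is not particular to them. Log2 differences, autophagy-deficient minus wild type, ran from -0.18 to 0.23 with a median of 0.10, beside a median of -0.02 over all clusters. Of the members 7 lay above 0, as did 46.0% of all clusters. The 95% interval of each member's difference lay inside a fold of 1.5 in either direction (0.585 on the log2 scale). The lowest bound was -0.51 and the highest 0.56.

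**Figure D1:**
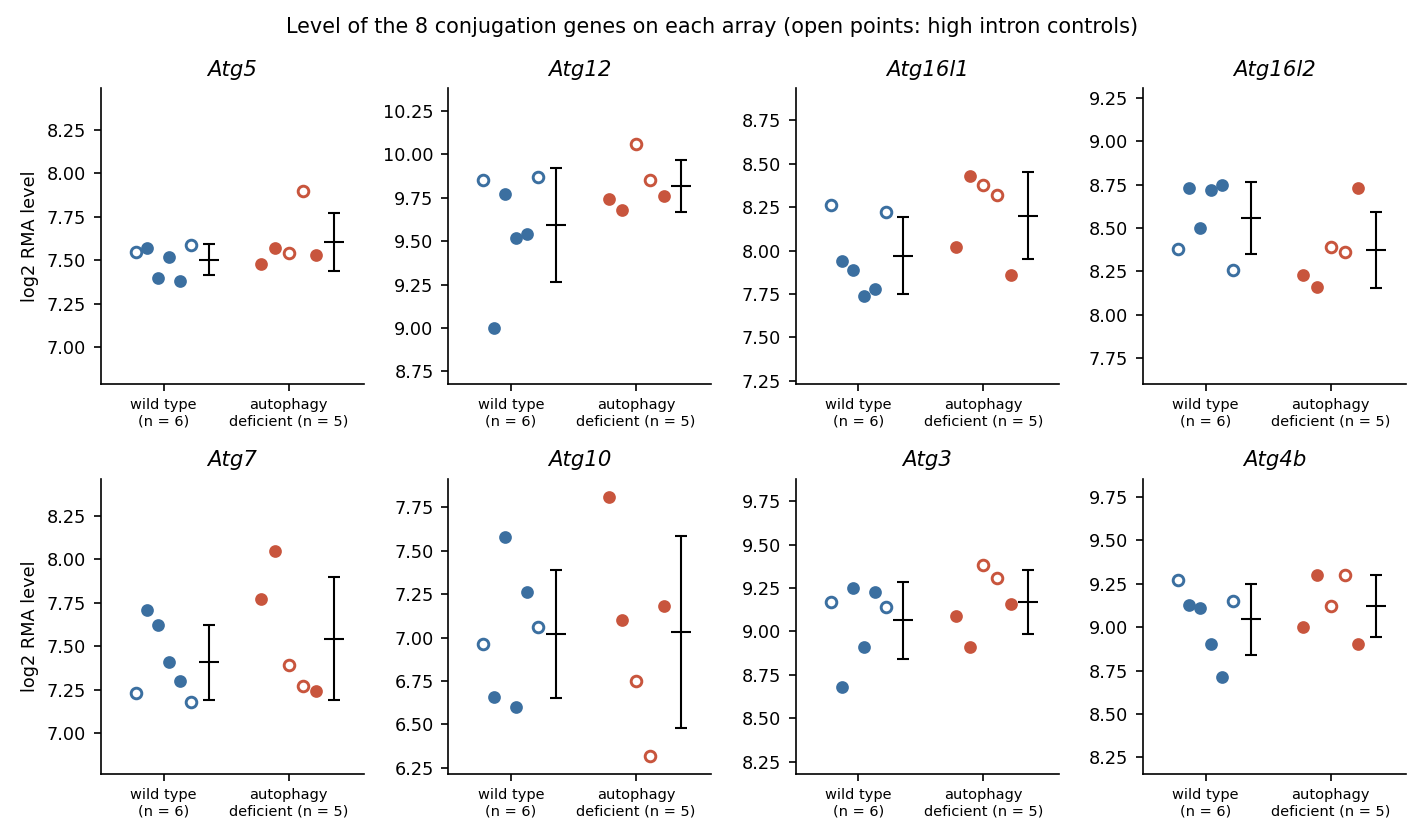
Log2 RMA level of each conjugation gene on every array, by genotype. Points are arrays, open points the 4 arrays with high intron controls, and bars beside them the mean ± SD (n = 6 and 5). Every vertical axis spans the same range. Autophagy-deficient array 4 stands at 7.90 for Atg5, and the genotypes overlap for every gene.

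**Figure D2:**
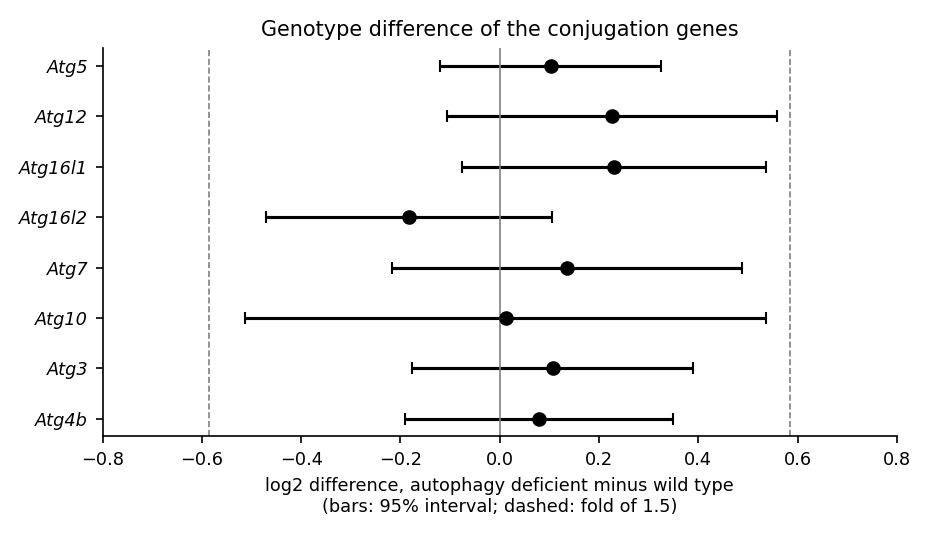
Log2 difference (autophagy-deficient minus wild type, horizontal axis) of each conjugation gene, with limma's 95% interval from 6 and 5 arrays. Dashed lines mark a fold of 1.5, and all 8 intervals include 0 and end inside those lines.

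Atg5 encodes the acceptor of ATG12 and is the gene that was floxed. Wild type arrays read a lowest log2 level of 7.38, a median of 7.54 and a highest of 7.59. The autophagy-deficient arrays 1 to 5 read 7.48, 7.57, 7.54, 7.90 and 7.53. The level thus lay in the wild type range in 4 of 5 autophagy-deficient arrays and above it in array 4. Means were 7.50 ± 0.09 (SD, n = 6) and 7.60 ± 0.17 (SD, n = 5). The difference was 0.10 (SE 0.10, 95% interval -0.12 to 0.33), a fold of 0.920 to 1.25 (two-sided exact permutation p = 0.27, limma adjusted p = 0.84). A fall of 1.5-fold lies outside this interval. The position of the Atg5 probes with respect to the loxP sites is given neither by the labels nor by the annotation used here, and the measured level is therefore no test of recombination. Without array 4 the autophagy-deficient mean was 7.53 ± 0.04 (SD, n = 4) and the difference 0.03 (exact permutation p = 0.60, where the smallest possible is 0.0095). Adding the mean of the hepatocyte markers to the model gave 0.006. Over all 11 arrays Atg5 had an SD of 0.135, which is at the 5.81th percentile of the SDs of all tested clusters and the lowest among the 8 genes.

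Atg12 encodes the ubiquitin-like protein that is joined to ATG5. Wild type arrays read 9.0 to 9.87 with a median of 9.66. Autophagy-deficient arrays 1 to 5 read 9.74, 9.68, 10.06, 9.85 and 9.76, all above the wild type mean. Wild type array 2 was lowest of all 11 and autophagy-deficient array 3 highest, and the others overlapped. Means were 9.59 ± 0.33 (SD, n = 6) and 9.82 ± 0.15 (SD, n = 5). The difference was 0.23 (SE 0.15, 95% interval -0.11 to 0.56, exact permutation p = 0.17, limma adjusted p = 0.78). Without wild type array 2 it was 0.11. The antigenomic controls were highest on that array, at 5.17 against 4.67 to 5.05 on the others. Over the 11 arrays Atg12 ran against that control mean (Pearson r = -0.756, permutation p = 0.0026, Benjamini-Hochberg adjusted p = 0.084 over 32 relations of members with array measures). Spearman's rho was -0.925 (permutation p = 0.00013, adjusted p = 0.0042). Pearson r was -0.676 without the 2 arrays farthest from the median and -0.900 within the 7 arrays with low intron controls; the part of this control signal in the genotype difference was not tested.

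The ATG16L proteins bind the ATG12-ATG5 conjugate and place it on the membrane, a role established for ATG16L1 and not for its paralogue ATG16L2. For Atg16l1, wild type arrays read 7.74 to 8.26 with a median of 7.92. Autophagy-deficient arrays 1 to 5 read 8.02, 8.43, 8.38, 8.32 and 7.86. Arrays 2, 3 and 4 lay above all wild type arrays, and arrays 1 and 5 lay within the wild type range. Means were 7.97 ± 0.22 (SD, n = 6) and 8.20 ± 0.25 (SD, n = 5), with a difference of 0.23 (SE 0.14, 95% interval -0.08 to 0.54, exact permutation p = 0.14, limma adjusted p = 0.77).

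Atg16l2 was the member that lay below 0. Its wild type arrays read 8.26 to 8.75 with a median of 8.61, and autophagy-deficient arrays 1 to 5 read 8.23, 8.16, 8.39, 8.36 and 8.73. Arrays 1 and 2 lay below all wild type arrays and array 5 lay close to the top of their range. Means were 8.56 ± 0.21 (SD, n = 6) and 8.37 ± 0.22 (SD, n = 5). The difference was -0.18 (SE 0.13, 95% interval -0.47 to 0.11, exact permutation p = 0.17, limma adjusted p = 0.79). The log2 ratio of Atg16l1 to Atg16l2 signal within an array was -0.98 to -0.04 in wild type (mean -0.59 ± 0.41, SD, n = 6). It was -0.87 to 0.27 in autophagy-deficient arrays (mean -0.17 ± 0.43, SD, n = 5). Signals of different probes are not on a common scale, so only the change of this ratio between arrays can be read. The ratio was looked at after both genes' values were seen, and its difference between genotypes was not tested.

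Of the enzymes, Atg7 encodes the activating enzyme that serves both ATG12 and LC3. Its wild type arrays read 7.18 to 7.71 with a median of 7.36. Autophagy-deficient arrays 1 to 5 read 7.77, 8.05, 7.39, 7.27 and 7.24, so arrays 1 and 2 lay above all wild type arrays and the other 3 within their range. The difference was 0.14 (SE 0.16, 95% interval -0.22 to 0.49, exact permutation p = 0.44, limma adjusted p = 0.87). Leaving out 1 array at a time gave 0.009 (without autophagy-deficient array 2) to 0.21 (without autophagy-deficient array 5). Array 2 also had the highest macrophage marker mean, 10.43. With that mean as a covariate the difference of Atg7 was -0.10.

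Atg10 encodes the enzyme that transfers ATG12 to ATG5, and it varied most of the members. Wild type arrays read 6.60 to 7.58 with a median of 7.01. Autophagy-deficient arrays 1 to 5 read 7.81, 7.10, 6.75, 6.32 and 7.18. The highest and the lowest of the 11 arrays were therefore both autophagy-deficient, 2.81-fold apart, and the wild type arrays spanned 1.97-fold. The SD over all arrays was 0.436, at the 87.6th percentile of all tested clusters. Means were 7.02 ± 0.37 (SD, n = 6) and 7.03 ± 0.55 (SD, n = 5), with a difference of 0.01 (SE 0.24, 95% interval -0.51 to 0.54, exact permutation p = 0.97). Within the 7 arrays with low intron controls the difference was 0.34 (n = 4 and 3), and within the other 4 it was -0.475 (n = 2 and 2). Whether these differ from each other was not tested.

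Atg3 and Atg4b act on the LC3 side of the reaction, ATG3 as the conjugating enzyme and ATG4B as the protease. Atg3 read 8.68 to 9.25 in wild type (median 9.16), and autophagy-deficient arrays 1 to 5 read 9.09, 8.91, 9.38, 9.31 and 9.16. Arrays 3 and 4 lay above all wild type arrays and the other 3 within their range. Its difference was 0.11 (SE 0.13, 95% interval -0.18 to 0.39, exact permutation p = 0.44). Without wild type array 2 it was 0.03, and without autophagy-deficient array 2 it was 0.17. Atg4b read 8.71 to 9.27 in wild type (median 9.12) and 9.0, 9.30, 9.12, 9.30 and 8.90 in autophagy-deficient arrays 1 to 5. Arrays 2 and 4 lay just above the highest wild type array, and array 5 in the lower part of the wild type range. Its difference was 0.08 (SE 0.13, 95% interval -0.19 to 0.35, exact permutation p = 0.50). Without wild type array 5 it was 0.012, without autophagy-deficient array 2 or 4 it was 0.035, and the highest value with 1 array left out was 0.14.

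Because arrays with high and low intron controls occur in both genotypes, each member was also compared within these sides. Within the 7 arrays with low intron controls (4 wild type, 3 autophagy-deficient) the differences were 0.06 for Atg5, 0.27 for Atg12, 0.27 for Atg16l1 and -0.30 for Atg16l2. They were 0.18 for Atg7, 0.04 for Atg3 and 0.10 for Atg4b. On the other side, with 2 arrays of each genotype, they were 0.15 for Atg5, 0.10 for Atg12, 0.11 for Atg16l1 and 0.06 for Atg16l2. There they were 0.13 for Atg7, 0.19 for Atg3 and 0.00 for Atg4b. Besides Atg10, the sign of Atg16l2 differed between the sides. No member was called by the study's rule on either side, against 359 (low) and 285 (high) of 22206 clusters.

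**Figure D3:**
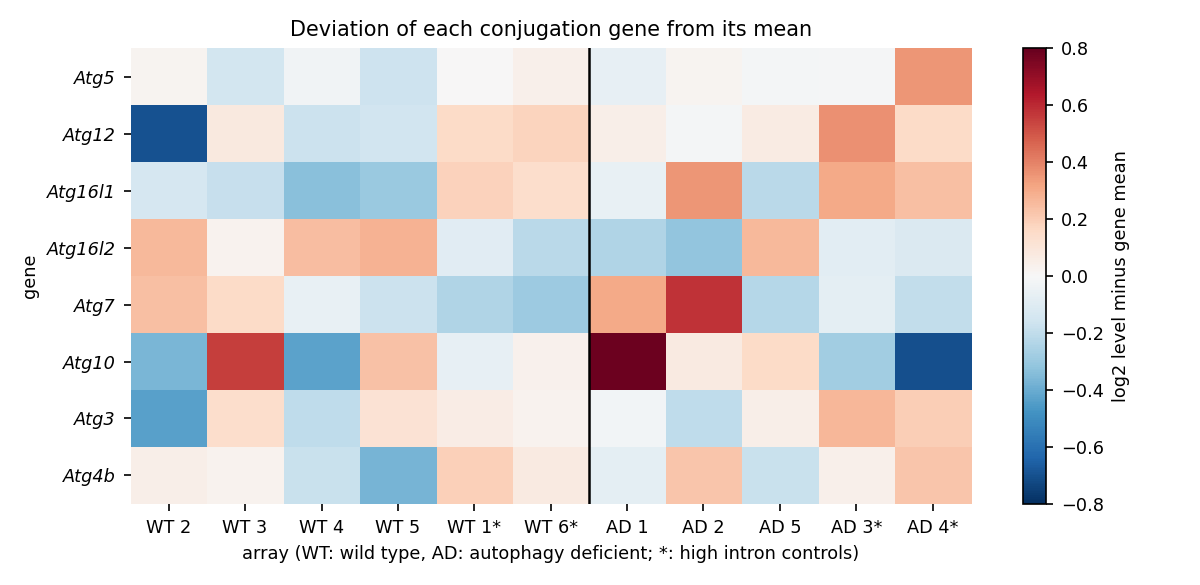
Log2 level of each gene minus its mean over the 11 arrays, shown as colour (red above, blue below), for wild type (left) and autophagy-deficient arrays (right of the line). Asterisks mark high intron controls. Atg5 is nearly even apart from autophagy-deficient array 4, whereas Atg10 ranges from 6.32 to 7.81.

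The members did not vary as a block. Of the 28 pairs of members, 14 had a Pearson r above 0 over the 11 arrays, and r ranged from -0.812 to 0.841. After Benjamini-Hochberg adjustment over the 28 pairs, 2 passed an adjusted p of 0.05 by Pearson's r and 2 by Spearman's rho. Atg16l1 and Atg4b passed by both measures (r = 0.826, permutation p = 0.0015, adjusted p = 0.025; rho = 0.849, permutation p = 0.0014, adjusted p = 0.026). Their r was 0.854 without the 2 arrays farthest from the median of Atg16l1, 0.840 after subtraction of the genotype means and 0.806 within the 7 arrays with low intron controls. Atg12 and Atg3 had r = 0.841 (permutation p = 0.0018, adjusted p = 0.025) and rho = 0.717 (permutation p = 0.016, adjusted p = 0.11). For this pair r was 0.491 without the 2 farthest arrays and 0.779 within the low intron arrays. Both genes were lowest in wild type array 2 and highest in autophagy-deficient array 3. Atg5 and Atg4b passed by rank (rho = 0.849, permutation p = 0.0018, adjusted p = 0.026) but not by r (0.624, permutation p = 0.040, adjusted p = 0.17). Dropping the 2 arrays most distant from the median of Atg5 gave rho = 0.740 and r = 0.325. Within the low intron arrays rho was 0.655 and r 0.554, and r was 0.599 after subtraction of the genotype means.

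Some pairs ran against each other. Atg16l1 and Atg16l2 had r = -0.812 (permutation p = 0.0054, adjusted p = 0.0500) and rho = -0.747 (permutation p = 0.011, adjusted p = 0.10), with r = -0.783 without the 2 farthest arrays and -0.832 within the low intron arrays. The adjusted p of this r lies just above 0.05 (0.05003). Atg5 and Atg10 had r = -0.708 (permutation p = 0.013, adjusted p = 0.089) and rho = -0.647 (permutation p = 0.035, adjusted p = 0.14), with r = -0.636 without the 2 farthest arrays and -0.569 within the low intron arrays. The conjugation partners ATG5 and ATG12 had transcripts with r = 0.159 (permutation p = 0.55, adjusted p = 0.70) and rho = 0.324 (permutation p = 0.33, adjusted p = 0.61), and that r was -0.155 without the 2 farthest arrays. Few relations of members with array measures passed the adjustment. Of the 32 relations with intron controls, antigenomic controls, hepatocyte markers and macrophage markers, 0 passed by Pearson's r and 2 by Spearman's rho, both of Atg12. The second was that of Atg12 with the intron control mean (rho = 0.838, permutation p = 0.0023, adjusted p = 0.037; r = 0.661, permutation p = 0.013, adjusted p = 0.20). That r was 0.680 without the 2 farthest arrays and 0.484 within the low intron arrays. Atg12 read 9.0 to 9.77 on arrays with low and 9.85 to 10.06 on arrays with high intron controls. For the intron control mean, r over all arrays was -0.597 for Atg7, 0.594 for Atg16l1 and 0.550 for Atg3. It was 0.490 for Atg4b, -0.489 for Atg16l2, 0.452 for Atg5 and -0.2175 for Atg10. With the antigenomic control mean, Atg3 had r = -0.646 over all arrays and -0.822 within the low intron arrays. Over all arrays, r with that mean was 0.565 for Atg7, 0.557 for Atg16l2 and -0.522 for Atg16l1. It was -0.465 for Atg4b, -0.405 for Atg5 and 0.042 for Atg10. None of these r over all arrays passed the adjustment. The part of the array measures in the relations between members was not tested.

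**Figure D4:**
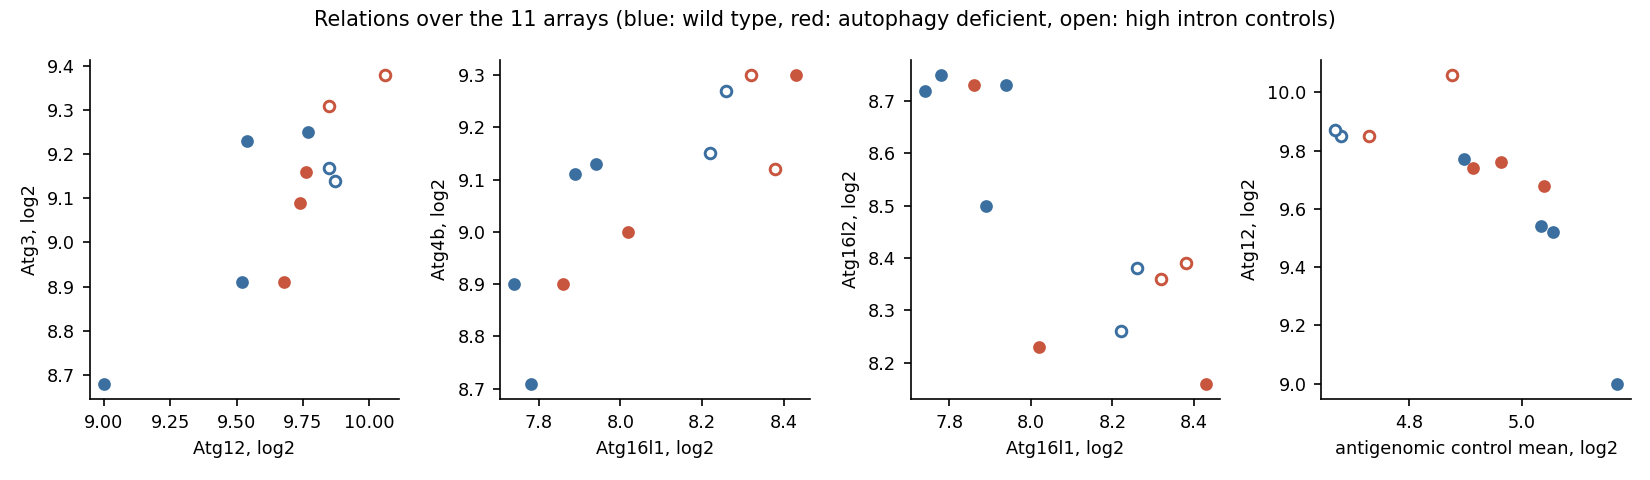
Log2 values of 3 gene pairs, and of Atg12 against the array's antigenomic control mean, over the 11 arrays (blue wild type, red autophagy-deficient, open points high intron controls). Wild type array 2 and autophagy-deficient array 3 are the lowest and the highest array for both Atg12 and Atg3, with r = 0.491 among the arrays left when the 2 farthest are dropped. Atg16l1 has r = 0.826 with Atg4b and r = -0.812 with Atg16l2, and the lowest Atg12 value, 9.0 in wild type array 2, lies at the highest control mean.

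Over the 11 arrays, the clusters whose pattern was most like that of Atg5 among 15086 candidates above the antigenomic controls were Pwp2 (Pearson r = 0.930), Jmjd4 (0.920), Ddx56 (0.905), Hgs (0.901) and Klhl18 (0.890). Without the 2 arrays farthest from the median of Atg5, these r were 0.802, 0.852, 0.862, 0.744 and 0.903. The same measure gave Aff1 for Atg12 (0.971), Stk35 for Atg16l1 (0.944), Cpz for Atg16l2 (0.976) and Prkag1 for Atg7 (0.963). It gave Vrk1 for Atg10 (0.949), Metap2 for Atg3 (0.967) and Tyrp1 for Atg4b (0.913). Each is the highest of 15086 values over 11 arrays that share their processing, and no member was nearest to another member. Tyrp1 averaged 4.93 in wild type, close to the mean of the antigenomic controls (4.91).

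The rest of the pathway ranged from -0.28 to 0.30 on the same log2 scale. Among 46 other autophagy genes that were measured, 41 had a positive difference and 5 a negative difference (median 0.10), and 0 were called by the study's rule or by the limma adjusted p. Without wild type array 5 the median was 0.05. Over all 11 arrays, 46.0% of all clusters lay above 0, with a median of -0.02. The genes were read on the same arrays, so their signs are not independent observations. Among 11 genes of the same step (LC3 and GABARAP proteins, the other ATG4 proteases and binding partners) 10 lay above 0 with a median of 0.04. There the protease Atg4d (0.22, SE 0.13) and Gabarapl1 (0.15, SE 0.13) had the smallest p. Of 11 initiation and nucleation genes 10 lay above 0 (median 0.11), with the lipid kinase Pik3c3 at 0.30 (SE 0.16) and the ULK complex subunit Atg13 at 0.22 (SE 0.12). For lipid supply and scission 6 of 7 lay above 0 (median 0.08), with the phosphoinositide-binding proteins Wdr45 at 0.24 (SE 0.15) and Wipi1 at 0.17 (SE 0.20). Of 6 receptors and adaptors 5 lay above 0 (median 0.16), with Tollip at 0.15 (SE 0.11) and the ferritin receptor Ncoa4 at 0.17 (SE 0.17). All 6 fusion genes lay above 0 (median 0.15). Plekhm1, an adaptor of late endosomes and lysosomes, was at 0.28 (SE 0.14), and Epg5, a tether of autophagosomes, at 0.18 (SE 0.09, exact permutation p = 0.0087, limma adjusted p = 0.76).

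Among 5 transcription regulators the median was 0.01. Tfeb was the gene of the wider list with the smallest p and lay below 0. It read 8.87 to 9.29 in wild type (9.15 ± 0.15, SD, n = 6) and 8.78 to 9.04 in autophagy-deficient arrays (8.87 ± 0.10, SD, n = 5), so the genotypes overlapped. The difference was -0.28 (SE 0.10, 95% interval -0.50 to -0.06), with an exact permutation p = 0.0087 and a limma adjusted p of 0.76 over all clusters. The difference did not reach a fold of 1.5. Of the 46 genes only 1, Tfeb, had an unadjusted limma p up to 0.05, against 6.39% of all clusters. Its exact p is not adjusted for picking the gene from the list. Adding the mean of the hepatocyte markers to the model gave -0.25 (SE 0.14). Mitf, a relative of Tfeb, was at 0.25 (SE 0.19). The members with an E-box in the window searched were at 0.10 (Atg5), 0.14 (Atg7) and 0.11 (Atg3). Those with a window but no E-box were at 0.01 (Atg10), 0.08 (Atg4b) and -0.18 (Atg16l2). Atg12 and Atg16l1, each at 0.23 and the highest of the members, had no window that was searched. A relation of the E-box or of Tfeb to these differences was not tested.

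**Figure D5:**
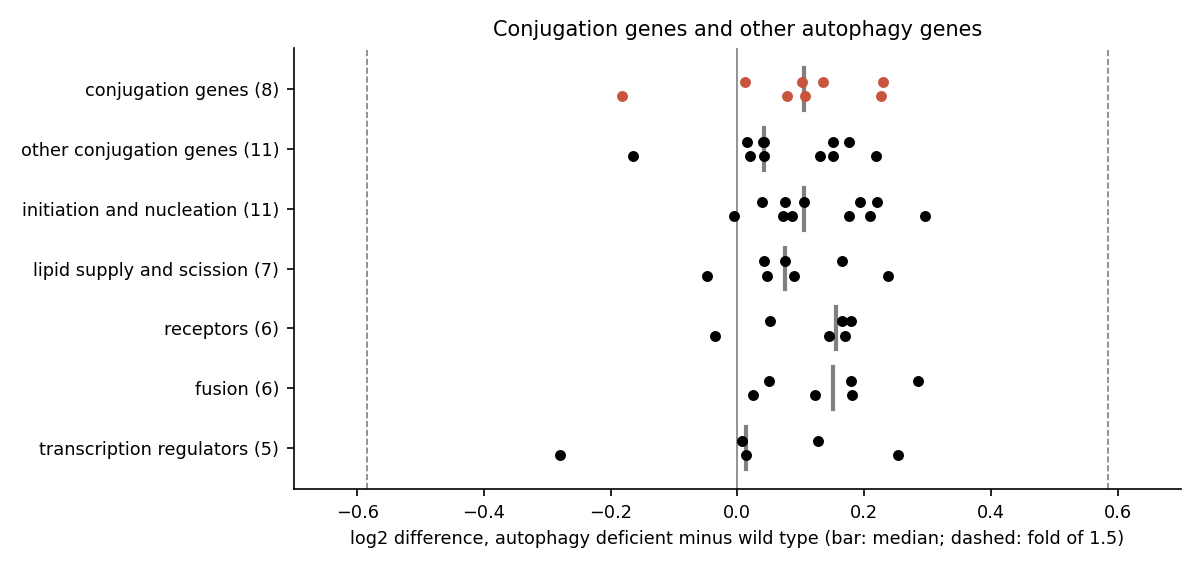
Log2 difference between genotypes (autophagy-deficient minus wild type) of the 8 conjugation genes (red) and of 46 other autophagy genes by role (black), 1 point a gene, with the median of each row as a grey bar. No point lies outside the dashed lines of a 1.5-fold difference, and Tfeb at -0.28 is the lowest.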

How the data were processed

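The authors deposited log2 expression values with 2 decimals, 1 column per array. Per the submitters' processing notes the values come from Affymetrix Expression Console and RMA; the versions and the genome build are not given in the sources used here. Background subtraction and quantile normalization in RMA remove shifts shared by most genes and compress weak signals. Of 28846 rows, 6640 control rows were left out. In the platform annotation 19572 clusters had 1 symbol, 0 had several and 2634 had no symbol; the cluster brightest over all arrays stood for a symbol. The genotype comparison used limma 3.58.1 (lmFit and eBayes, genotype as the only term; R 4.3.3), adjusted over all 22206 clusters. The study's rule names no test, so this fit was used for it. Exact permutation tests (scipy 1.17.1) covered all 462 assignments of 11 arrays to 5 and 6, with the smaller one-sided share doubled, so the smallest p is 0.0043; without 1 autophagy-deficient array there were 210 assignments. Relations used 100000 permutations. The limma fit was tested on simulated data.

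The members and gene lists were chosen with earlier results of these data known. Named are all 8 members, the 2 wider-list genes of smallest p per role, and the clusters of highest Pearson r with Atg5 (5) and with each other member (1), leaving out predicted and sex-linked genes. Further marker lists gave median log2 differences of 0.46 (stellate), -0.26 (cholangiocyte), 0.30 (T and NK), -0.05 (B), -0.07 (neutrophil), -0.16 (erythroid and platelet) and 0.006 (pan-endothelial). Alternatives were leaving out each array, a replicate block, other normalizations, array weights, another variance model, a filter on dim clusters and covariates. Same-numbered arrays of the genotypes did not deviate together (correlations -0.321 to 0.389), so the numbers were treated as names. The number of arrays limits the precision.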

Additional observations from a re-analysis of the deposited data

Results flagged for a closer look

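In autophagy-deficient array 4 the log2 level of Atg5 was 7.90, and the next highest of its group read 7.57. The gap was 0.786 of the group's range, above the critical value of 0.710 of Dixon's test for 5 samples. Of 16 groups of values examined (8 genes in each genotype) this was the only 1, and chance alone marks about 1 group in 20. The same array was lowest of all for Atg10 (6.32) and had the lowest hepatocyte marker mean (8.01).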

How the results depend on the processing

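No member was called by the study's rule under any of the 26 alternatives. In the 24 that give differences, 171 to 1818 of all clusters met that rule, so 0 of 8 is not particular to the members. In these 24, 5 to 7 of the 8 lay above 0. The median of the members ran from 0.05 (quantile normalization repeated) to 0.17 (macrophage mean as a covariate). Atg5 ran from 0.006 to 0.17, Atg12 from 0.10 to 0.42 and Atg16l1 from 0.11 to 0.32, all above 0. Signs turned elsewhere: Atg10 ran from -0.18 to 0.19 with each array left out, and was -0.11 with array weights, -0.15 with the macrophage mean and -0.475 in the 4 arrays with high intron controls, where Atg16l2 was 0.06 (0.055). With quantile normalization repeated, Atg3 was -0.0037 and Atg4b -0.021. Atg4b was -0.0066 with the hepatocyte mean and Atg7 -0.10 with the macrophage mean. With the macrophage mean 2 of the 46 genes of the wider list were called, Rb1cc1 (1.26) and Tax1bp1 (0.87), against 0 otherwise. That setting also called 1818 of all 22206 clusters, against 228 in the main fit, so these calls are not particular to the list. The cause was not tested. The same-numbered arrays fitted with a replicate block gave Atg5 a difference of 0.12, and 0 members were called. The fit of the same arrays without the block gave the same difference. As each number used occurs in both genotypes, this equality is fixed by the design and shows nothing about pairing. The intron side as a factor, and this fit without the block, were chosen after the data were seen. As no gene of either list had more than 1 cluster, averaging clusters was not run.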
